A study of Mus musculus with 16 samples.

Results

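The genes described here are 10 regulators of alternative splicing with known roles in muscle differentiation: Mbnl1, Mbnl2, Mbnl3, Celf1, Celf2, Ptbp1, Ptbp2, Rbfox2, Rbm24 and Rbm38. The rule lists them by name and uses no measured value, although the list was drawn up with earlier results of these data known. Each was found as 1 row among the 31053 genes of the deposited table. All 10 passed the filter on low values and are among the 10767 genes tested. The values are levels of gene RNA, so that the inclusion of single exons was not measured.

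The transcriptome was measured by sequencing of mRNA in 16 samples of C2C12, a mouse myoblast line that fuses into multinucleated myotubes in culture. WT and Fam134b knockout (KO) cells were each sampled as myoblasts and as myotubes, with 4 samples per group that the labels call biological replicates. Fam134b encodes a receptor of ER-phagy, the autophagic turnover of the endoplasmic reticulum, and the design asked how its loss bears on myogenesis. All 4 groups were grown in DMEM with serum, KO cells were made with lentiviral CRISPR-Cas9 and antibiotic selection, and the sources used here name neither a clone nor a day for these samples. Genotype and stage were taken from the sample titles, since the genotype field of the labels reads unknown throughout.

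Alternative splicing is set by RNA-binding proteins that sit on the pre-mRNA near an exon and favor or block its inclusion. In developing muscle, muscleblind-like (Mbnl) proteins promote adult exon patterns and the Celf proteins act against them on many of the same transcripts, while Ptbp1 represses exons used in differentiated cells. Rbfox2, Rbm24 and Rbm38 promote muscle exons, and both Rbm proteins also bind mRNAs and alter the stability of mRNAs of the myogenic program.

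Between 1484750 and 3287461 reads per library were counted on genes. KO myotube replicates 4 and 2 were the shallowest, with 1484750 and 1790524 reads, and member calls that change without both of them, or called values that move by over 1.5 times, are given beside the result. A level counted as detected from 3 reads, a normalized count of 2.49 to 5.99 depending on the library, and such floors cover counting error only. Fam134b itself stood at 13.3% of the WT mean in KO myoblasts and at 18.03% in KO myotubes. Of 20 myotube markers in the table, Myog, Myh8, Myh1, Actn2 and Cav3 had 0 reads in all KO myoblast libraries. Summed over the markers, WT myoblast libraries held 3492 to 4796 normalized counts and WT myotube libraries 39392 to 60127. KO myoblast libraries held 147 to 219, and KO myotube libraries 15699 to 21751. In these bulk samples, fewer cells of a type and less RNA per cell cannot be told apart. Markers of neural, adipocyte, fibroblast, cardiac and immune or endothelial cells were also summed. The neural sum rested on 2 tested genes and ranged from 63.9 to 98.1 normalized counts in WT and from 127 to 271 in KO libraries, and 5 or 6 of the 8 listed genes, Snap25 and Sox10 among them, had at most 3 reads in every library of a group. Its tested gene Map2, a microtubule-associated protein, was called higher in KO than in WT cells by 1.12 in myoblasts (adjusted p = 2.31e-04) and by 1.65 in myotubes (adjusted p = 4.25e-06 in limma). Tubb3, the other tested neural gene, was not called between genotypes. For fibroblast markers the sum in WT cells was 2260.1 to 4592 at the myoblast stage and 10007 to 16317 at the myotube stage. In KO cells it was 3023 to 11545 and 12295 to 24909.7, with at most 3 reads of Thy1 and Lum in any library. Of the other fibroblast markers, the collagen gene Col1a1 was called higher in KO than in WT myoblasts by 1.10 (adjusted p = 0.0294) and Dcn, the gene of decorin, higher in KO than in WT myotubes by 1.57 (adjusted p = 0.0265). Both of these genes rose on differentiation in both genotypes, while Pdgfra, the remaining tested fibroblast gene, was not called in any of these comparisons. The cardiac sum was 0.964 to 6.46 in WT myoblasts and 5.94 to 10.8 in WT myotubes, against 44.8 to 66.5 and 20.7 to 44.5 in the KO groups. In the KO groups it rested mostly on the transcription factor gene Nkx2-5, while in WT myotubes Myh6 held a mean of 5.29 normalized counts. Nkx2-5 was called higher in KO than in WT myoblasts by 3.91 (adjusted p = 7.16e-06) and in KO than in WT myotubes by 3.11 (adjusted p = 1.64e-04 in limma). It was the only cardiac marker tested and passed the filter on low values through the KO libraries, in which it was then called higher. Nppa had no read. The adipocyte sum was at most 26.2, and the immune or endothelial sum was at most 12.1. Adipoq, Plin1, Fabp4 and Cidec had at most 3 reads in any library. The remaining adipocyte gene, Pparg, was called higher in KO than in WT myoblasts by 1.84 (adjusted p = 0.0366 in limma). Pparg passed the filter on low values only through the KO myoblasts, the group in which it was then called higher. With no filter its call was lost (adjusted p = 0.0523 in limma). The calls of Col1a1, Dcn and Pparg were each lost with single libraries left out (adjusted p up to 0.133, 0.105 and 0.122). The part of these markers in the differences of the members between genotypes was not tested.

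The upstream sequences of the member that rose most and of a member that fell in both genotypes are shown to place the measurements on the genome. Rbm24 lies at chr13:46418434-46431095 and Mbnl1 at chr3:60472830-60629750, both on the + strand of GRCm38 (the mm10 build). Each sequence runs 5′ to 3′ over the 250 bases before a RefSeq start site, at chr13:46418050-46418299 for Rbm24 and chr3:60472580-60472829 for Mbnl1. No annotated exon overlaps either window. Capitals mark matches to the E-box CANNTG, a general form that includes the letters recognized by MyoD and myogenin. A match to it need not be a form that these factors recognize.
Rbm24: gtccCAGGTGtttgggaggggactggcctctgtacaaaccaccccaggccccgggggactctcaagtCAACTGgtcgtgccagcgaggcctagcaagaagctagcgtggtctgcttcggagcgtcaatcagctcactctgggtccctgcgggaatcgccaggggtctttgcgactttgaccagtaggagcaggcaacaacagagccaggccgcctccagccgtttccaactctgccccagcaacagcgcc
Mbnl1: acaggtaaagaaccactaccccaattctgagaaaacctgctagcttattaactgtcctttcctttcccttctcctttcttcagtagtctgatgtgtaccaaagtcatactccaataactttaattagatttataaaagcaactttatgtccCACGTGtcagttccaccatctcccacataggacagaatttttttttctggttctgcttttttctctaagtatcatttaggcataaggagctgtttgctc
The Rbm24 window held CAGGTG and CAACTG, starting 246 and 183 bases before the start site, and the Mbnl1 window held CACGTG at 99 bases. CANNTG reads as CANNTG on the other strand too, and it occurred in 66.2% of all 32851 promoter windows of this length. Its forms CAGCTG and CACGTG, which are counted within it, occurred in 13% and 6.02%. RefSeq windows were matched for 9 of the 10 members, all but Rbfox2, and 7 of their 14 windows, from the members Mbnl1, Celf2, Ptbp1 and Rbm24, held an E-box. A match describes the letters and is not a bound site.

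Differentiation moved the members in both directions. In WT cells Rbm24, Rbm38 and Rbfox2 rose and Ptbp1 and Mbnl1 fell on differentiation. In KO cells Rbm24, Rbfox2 and Celf2 rose, and Ptbp1, Mbnl1 and Mbnl3 fell. The question of the comparison was which transcripts change as myoblasts become myotubes, with and without Fam134b. In WT cells 5 of the 10 members passed limma's test at an adjusted p under 0.05, where 23% of all tested genes were called. The groups of libraries did not overlap for Rbm24, Rbm38, Rbfox2, Mbnl1 and Mbnl3, 5 of 10, as for 28% of all genes. In KO cells 6 of 10 were called against 33.4% of all genes, and these 6 had groups that did not overlap, against 27.4% of all genes. Without adjustment, 6 members in WT and 7 in KO cells had a p under 0.05, beside 3816 and 4704 of all 10767 tested genes. The median log2 fold change of the members was 0.06 in WT and 0.15 in KO cells, beside −0.01 and −0.02 over all tested genes.

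**Figure D1:**
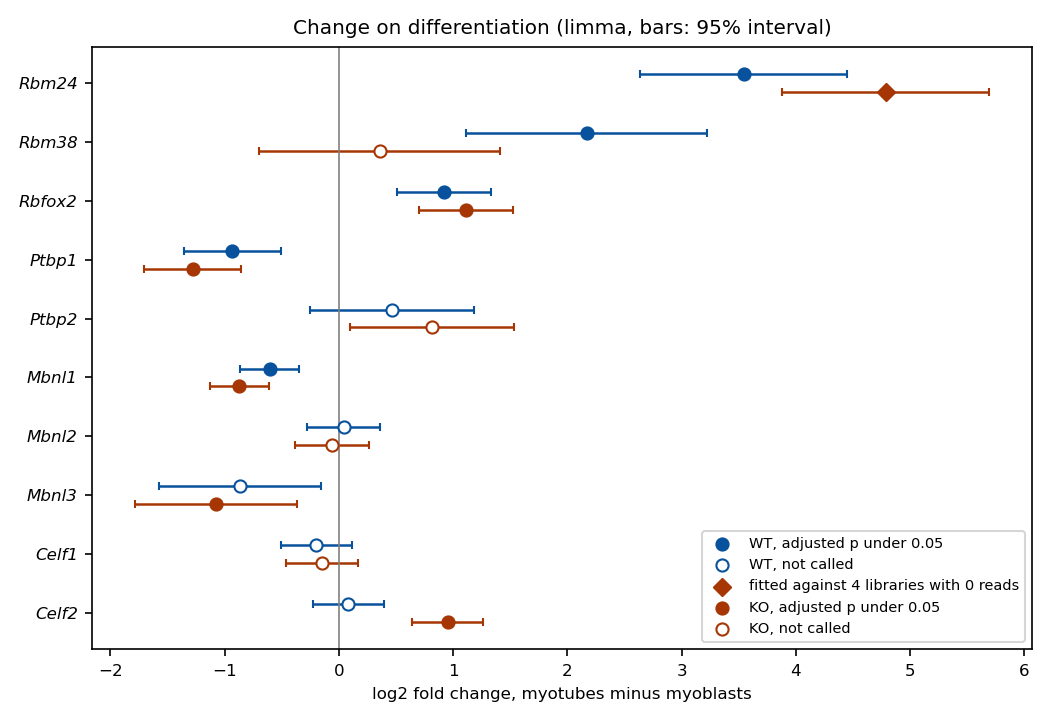
Log2 fold change of each member on differentiation (x axis, myotubes minus myoblasts, with 95% intervals from limma) in WT (blue) and KO (brown) cells. Filled points were called at an adjusted p under 0.05, and the diamond marks Rbm24 in KO cells, whose fitted value rests on 0 reads in all 4 KO myoblast libraries. Rbm24 lies farthest to the right, and Ptbp1 and Mbnl1 lie left of 0 in both genotypes.

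Rbm24, an RNA-binding protein of heart and skeletal muscle that promotes muscle exons, had the largest fold change of the 10 members. Its normalized counts were 8.30, 14.5, 13.01 and 11.6 in WT myoblasts and 204, 67.5, 185 and 180.3 in WT myotubes. Every WT myotube library exceeded every WT myoblast library, and replicate 2 stood below the other 3 myotube libraries. The mean rose from 11.8 ± 2.64 to 159 ± 61.9 (SD, n = 4 each), or by 3.55 ± 0.44 on the log2 scale (SE, adjusted p = 4.71e-06 in limma). In KO myoblasts no Rbm24 read was counted in any of the 4 libraries, although each had at least 2926807 reads on genes. KO myotubes held 41.6, 11.7, 55.8 and 17.98 normalized counts, from 8 to 62 reads. Each KO myotube library was therefore above the KO myoblasts, and each was below the lowest WT myotube library. Against a floor of 3 reads per library, Rbm24 was at least 12.1-fold higher in KO myotubes than in KO myoblasts (adjusted p = 3.23e-08 in limma).

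Between genotypes Rbm24 was lower in KO cells at both stages. In myoblasts it was at least 4.51-fold lower (adjusted p = 1.98e-06 in limma), and in myotubes the log2 fold change was −2.42 ± 0.44 (SE, adjusted p = 3.93e-04), from a mean of 159 to 31.8 ± 20.6. Without the shallow KO myotube libraries the latter became −1.58 (adjusted p = 0.00848). These comparisons use the same libraries as those of differentiation. The difference between genotypes in the fitted change on differentiation was 1.24 on the log2 scale (adjusted p = 0.305). It depends on the value added to 0 reads, being −0.50 with a pseudocount of 5, and without the shallow KO myotube libraries it was 2.07 (adjusted p = 0.0285). The summed myotube markers, given above, were also lowest in KO myoblasts and lower in KO than in WT myotubes; their part in the Rbm24 difference was not tested.

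Rbm38, a paralog of Rbm24 that promotes cell cycle exit through the stability of target mRNAs, was called in WT cells. It lies at chr2:173020498-173034734 on the + strand. Its normalized counts were 11.1, 5.79, 3.002 and 5.35 in WT myoblasts and 50.1, 14.4, 25.1 and 40.6 in WT myotubes, again without overlap and with replicate 2 lowest among the myotubes. The log2 fold change was 2.17 ± 0.51 (SE, adjusted p = 0.00395 in limma). KO myoblasts held 13.1, 9.13, 5.21 and 7.51 normalized counts and KO myotubes 18.4, 7.30, 24.3 and 4.00, the last from 2 reads. The overlap lay in the shallow replicates 2 and 4, as replicates 1 and 3 were above every KO myoblast library. The log2 fold change of 0.36 had a 95% interval from −0.70 to 1.41 (adjusted p = 0.622), and without the shallow libraries it was 1.25 (adjusted p = 0.0562). Its interaction of genotype and differentiation was −1.81 ± 0.72 (SE, adjusted p = 0.182), which did not pass the test. In myotubes the genotypes differed by −1.35 ± 0.51 (SE, adjusted p = 0.0582), which was not called. That comparison passed when WT myotube replicate 2 (−1.68, adjusted p = 0.0278), KO myotube replicate 1 (−1.58, adjusted p = 0.0411) or KO myotube replicate 3 (−1.71, adjusted p = 0.0227) was left out, and with a pseudocount of 5 (−1.07, adjusted p = 0.0371). Without the shallow KO myotube libraries it was −0.46 (adjusted p = 0.547).

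**Figure D2:**
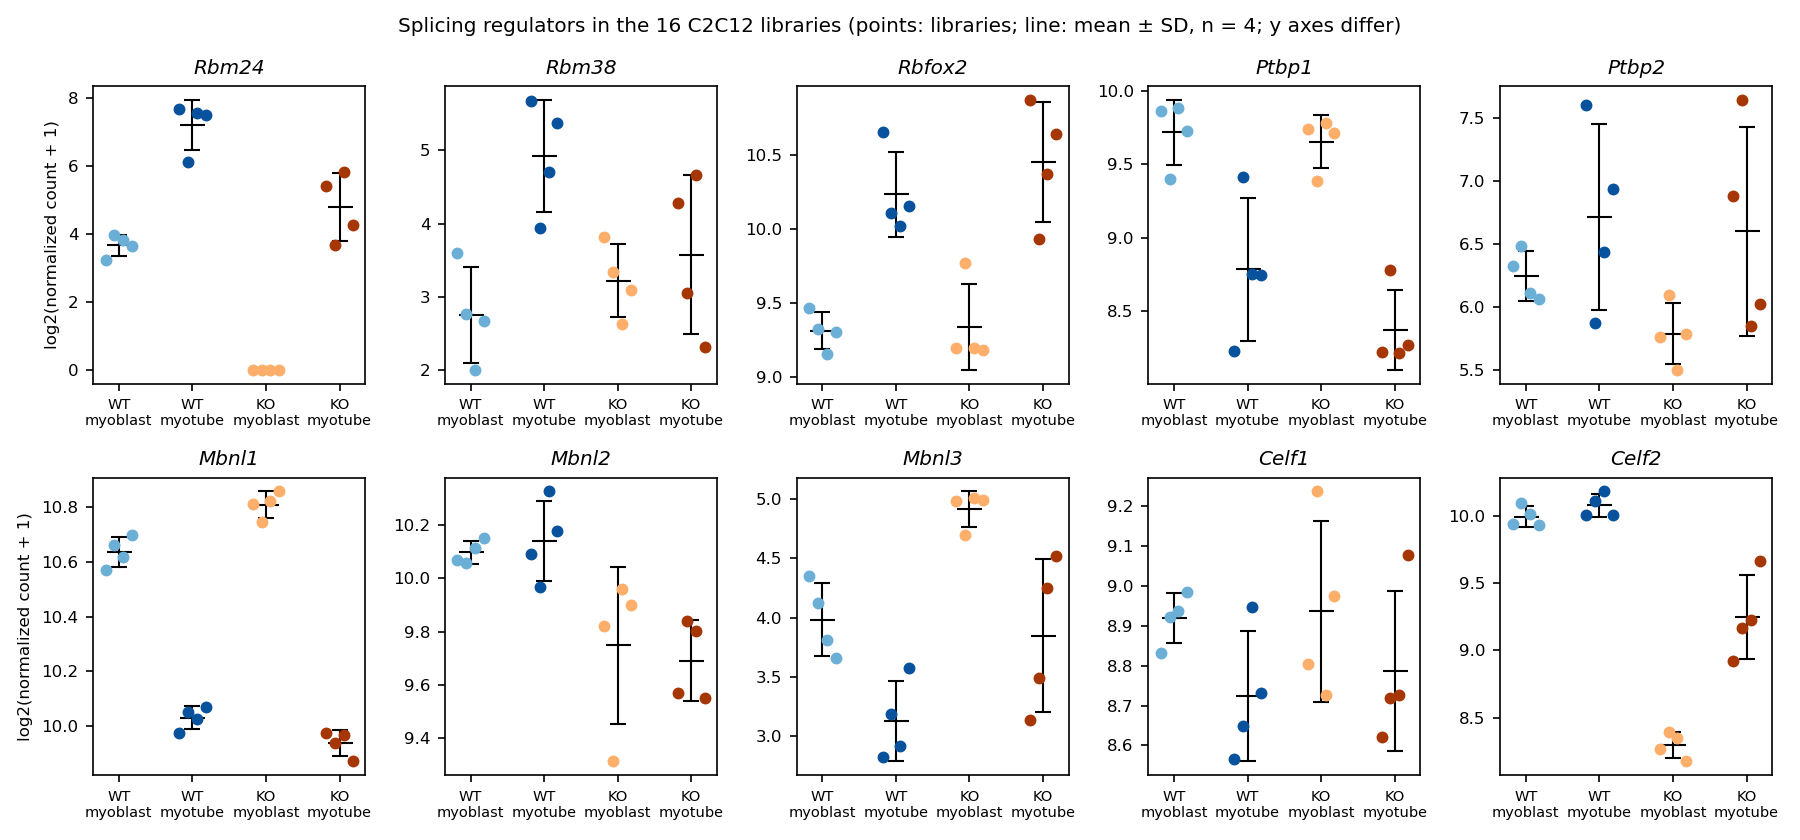
Log2 of the normalized count plus 1 (y axis, a separate scale per gene) of the 10 members in each of the 16 libraries, by group, with the mean ± SD of 4 libraries as black lines. Rbm24 sits at 0 in all KO myoblast libraries, Celf2 is lower in every KO library than in every WT library, and Mbnl1 separates the stages without overlap in both genotypes.

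The transcripts reported in the literature as bound by Rbm24 or Rbm38 were Myog, Cdkn1a, Mef2c and Trp53, and the first 3 rose and Trp53 fell in both genotypes on differentiation. Cdkn1a, the cell cycle inhibitor p21, had means of 1784 ± 146 in WT myoblasts, 5570 ± 753 in WT myotubes, 1028 ± 87.2 in KO myoblasts and 3269 ± 286 in KO myotubes (SD, n = 4 each). Its log2 fold changes on differentiation were 1.64 (adjusted p = 8.44e-08) in WT and 1.67 (adjusted p = 3.09e-08) in KO cells, and its differences between genotypes were −0.79 in myoblasts (adjusted p = 6.14e-04) and −0.76 in myotubes (adjusted p = 9.34e-04), all in limma. Myog, the gene of myogenin, had 92 to 161 reads in WT myoblasts and 0 in every KO myoblast library, at least 43.4-fold lower. In myotubes its difference between genotypes was −0.51 (adjusted p = 0.0892). Mef2c, a transcription factor of the muscle program, had at most 1 read in KO myoblasts and was lower in KO than in WT myotubes, with a log2 fold change of −1.98 (adjusted p = 0.00130). Trp53, the gene of p53, fell by 1.17 in WT (adjusted p = 0.0478) and by 1.57 in KO cells (adjusted p = 0.00630), on as few as 2 reads in 1 KO myotube library. The WT call of Trp53 was lost in 11 of the fits with a single library left out, each WT library among them (adjusted p up to 0.106), and the KO call without the shallow libraries (−0.61, adjusted p = 0.1004).

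Ptbp1, a repressor of exons that differentiated cells include, fell on differentiation in both genotypes. It lies at chr10:79854427-79864771 on the + strand, and 14.7% of the 31-base stretches of its transcript ends are shared with other genes, so that its count may be split. WT myoblasts held 932, 675, 942 and 846 normalized counts, and WT myotubes 299, 680.1, 431 and 428. Here the groups overlapped by 1 pair of libraries, since WT myotube replicate 2 was just above WT myoblast replicate 2. The log2 fold change was −0.93 ± 0.20 (SE, adjusted p = 0.00242 in limma). KO myoblasts held 853, 668, 879 and 838 and KO myotubes 298, 439, 297 and 308, with no overlap and a log2 fold change of −1.28 ± 0.20 (SE, adjusted p = 6.04e-05). The genotypes were not called different at either stage, with −0.06 in myoblasts (adjusted p = 0.889) and −0.41 in myotubes (adjusted p = 0.155). In myotubes the difference became −0.60 (adjusted p = 0.0328) without WT myotube replicate 1, the library with the lowest Ptbp1 of its group.

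Ptbp2, the neuronal paralog that Ptbp1 holds down in other cells, lies at chr3:119718742-119784466 on the − strand. Its normalized counts were 79.4, 88.7, 68.0 and 65.9 in WT myoblasts and 194, 57.6, 85.5 and 122 in WT myotubes. KO myoblasts held 53.4, 67.2, 44.2 and 54.2, and KO myotubes 117, 199.9, 56.7 and 63.9. The myotube groups spread over a wide range in both genotypes and overlapped the myoblasts. Neither log2 fold change was called, at 0.47 ± 0.35 in WT (SE, adjusted p = 0.352, and 0.57 with sample weights, adjusted p = 0.0378) and 0.82 ± 0.35 in KO cells (SE, adjusted p = 0.0740). The latter passed without KO myotube replicate 3 (1.07, adjusted p = 0.0253) or replicate 4 (1.01, adjusted p = 0.0350). The third family member, Ptbp3, fell in WT cells by 0.53 on the log2 scale (adjusted p = 0.0182) and had a log2 fold change of −0.29 in KO cells (adjusted p = 0.166). Its WT call was lost without WT myoblast replicate 2 (−0.46, adjusted p = 0.0606).

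Rbfox2, which promotes or blocks exons according to where it binds beside them, rose in both genotypes. It lies at chr15:77078990-77307004 on the − strand. WT myoblasts held 709, 641, 570.4 and 634 normalized counts and WT myotubes 1611, 1102, 1036 and 1142, a log2 fold change of 0.92 ± 0.20 (SE, adjusted p = 0.00201 in limma). The 2 groups did not overlap, and replicate 1 was the highest myotube library. KO myoblasts held 586, 873, 587 and 581 and KO myotubes 1875, 976, 1323 and 1599, a log2 fold change of 1.12 ± 0.20 (SE, adjusted p = 1.76e-04). Again the groups did not overlap, although KO myoblast replicate 2 stood above its group. The interaction of 0.20 had a 95% interval from −0.38 to 0.78, and the genotypes differed by 0.02 in myoblasts and 0.22 in myotubes (adjusted p = 0.963 and 0.454). Its paralog Rbfox1, a muscle and neuron splicing regulator, had 1 to 3 reads in WT myoblasts, 11 to 26 in WT myotubes, 0 in KO myoblasts and 0 to 4 in KO myotubes. Rbfox1 was called higher in WT myotubes than WT myoblasts (adjusted p = 9.70e-04) and lower in KO than WT myotubes (adjusted p = 0.00213 in limma). It passed the filter on low values only through the WT myotubes, the group in which it was then called higher. Its rise in KO cells was not called (adjusted p = 0.0584 in limma). That rise passed in 5 of the alternatives run, among them without the shallow KO myotube libraries (adjusted p = 0.0371). Rbfox3 had no read.

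Of the 3 muscleblind-like genes, Mbnl1, which promotes adult exons and whose loss of function underlies much of myotonic dystrophy, fell in both genotypes with little spread between replicates. WT myoblasts held 1519, 1617, 1571 and 1660.3 normalized counts and WT myotubes 1005, 1059, 1043 and 1074. KO myoblasts held 1794, 1713, 1811 and 1855, and KO myotubes 1004, 979, 1000.4 and 935. In each genotype all myotube libraries were below all myoblast libraries. The log2 fold change was −0.61 ± 0.12 in WT (SE, adjusted p = 0.00142) and −0.87 ± 0.12 in KO cells (SE, adjusted p = 1.64e-05 in limma). Between genotypes every KO myoblast library exceeded every WT myoblast library and every KO myotube library was below every WT myotube library, with differences of 0.17 (adjusted p = 0.413) and −0.09 (adjusted p = 0.637) that were not called.

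Mbnl2, a muscleblind-like gene active in brain and muscle, lies at chr14:120275669-120431697 on the + strand. It held 1071, 1066, 1108 and 1134 normalized counts in WT myoblasts, 1089, 1000.3, 1283 and 1155 in WT myotubes, 903, 635, 995 and 954 in KO myoblasts and 758, 916, 891 and 749 in KO myotubes. The KO libraries lay below the WT libraries at each stage, without overlap. Differentiation gave 0.04 in WT (95% interval −0.28 to 0.36) and −0.06 in KO cells (95% interval −0.38 to 0.26). Between genotypes the difference was −0.35 in myoblasts (adjusted p = 0.143) and −0.45 ± 0.15 in myotubes (SE, adjusted p = 0.0397 in limma). The call in myotubes was lost when WT myoblast replicate 1 or 3, WT myotube replicate 3 or 4, KO myoblast replicate 1 or KO myotube replicate 1 or 4 was left out, with the value between −0.51 and −0.39 over all libraries left out in turn. Over these its largest adjusted p was 0.122. It was also lost with no filter on low values (adjusted p = 0.0561), with total scaling (adjusted p = 0.0503), in a fit of the 8 samples compared (adjusted p = 0.109) and without the shallow KO myotube libraries (−0.46, adjusted p = 0.0955).

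Mbnl3, which is linked to undifferentiated muscle cells, was counted in 7 to 37 reads per library. It lies at chrX:51117269-51206532 on the − strand. WT myoblasts held 19.4, 16.4, 13.01 and 11.6 normalized counts and WT myotubes 6.04, 8.10, 6.51 and 10.9. KO myoblasts held 30.6, 24.9, 31.2 and 30.9, all above the WT myoblasts, and KO myotubes spread from 7.75 over 10.2 and 17.99 to 21.98. The log2 fold change on differentiation was −0.86 ± 0.34 in WT (SE, adjusted p = 0.0731) and −1.07 ± 0.34 in KO cells (SE, adjusted p = 0.0194 in limma). The KO call was lost without KO myotube replicate 1 (−0.83, adjusted p = 0.0709) and in a fit of the 8 samples compared (adjusted p = 0.0506). The WT value passed without the shallow KO myotube libraries (adjusted p = 0.0349) and with quantile scaling (−1.15, adjusted p = 0.0218). KO myoblasts were higher than WT myoblasts by 0.94 ± 0.34 (SE, adjusted p = 0.0678). This difference passed without KO myotube replicate 1, 2 or 4 (adjusted p = 0.0466, 0.0477 and 0.0455), libraries that enter this comparison through the shared estimate of spread alone, and without both shallow libraries (adjusted p = 0.0306). It passed too in a fit of the 8 samples compared (adjusted p = 0.00971), with sample weights (1.02, adjusted p = 0.00227) and with a pseudocount of 5 (0.79, adjusted p = 0.0399). In myotubes the difference was 0.73 (adjusted p = 0.131), and it passed without KO myotube replicate 1 (0.97, adjusted p = 0.0469) and with quantile scaling (1.02, adjusted p = 0.0404).

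Celf2, an antagonist of muscleblind-like proteins on many exons, was lower in KO cells at both stages. It lies at chr2:6539694-7509563 on the − strand. Normalized counts were 983, 1096, 1032 and 977 in WT myoblasts and 1029, 1108, 1164 and 1029 in WT myotubes. KO myoblasts held 307, 335, 325 and 288, and KO myotubes 484, 575, 598 and 813. All 8 KO libraries were thus below all 8 WT libraries, and the KO myotubes lay between the KO myoblasts and the WT cells. The difference between genotypes was −1.70 ± 0.15 in myoblasts (SE, adjusted p = 2.39e-08) and −0.83 ± 0.15 in myotubes (SE, adjusted p = 3.91e-04 in limma). On differentiation it rose in KO cells by 0.95 ± 0.15 (SE, adjusted p = 5.09e-05), while WT cells gave 0.08 (95% interval −0.23 to 0.40, adjusted p = 0.739). Tested as an interaction, this difference in response was 0.87 ± 0.21 (SE, adjusted p = 0.0242), the only interaction called among the members where 3.45% of all genes were called, 1.97% upward and 1.48% downward. The interaction did not pass without WT myoblast replicate 2 or 3, WT myotube replicate 4, or KO myoblast replicate 1 or 4, at adjusted p = 0.0587, 0.0524, 0.0557, 0.0574 and 0.0636, and without the shallow KO myotube libraries it was 0.70 (adjusted p = 0.0682).

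Celf1, the broadly expressed CELF protein that destabilizes mRNAs as well as regulating exons, lies at chr2:90940382-91019497 on the + strand and was not called in any comparison. Its normalized counts were 455, 484, 489 and 505 in WT myoblasts, 378, 400.3, 493 and 424 in WT myotubes, 446, 603, 422 and 502 in KO myoblasts and 393, 420.2, 423 and 539.5 in KO myotubes. All 4 groups overlapped. Its 95% interval on differentiation ran from −0.51 to 0.12 in WT and from −0.46 to 0.16 in KO cells on the log2 scale. Among the other CELF genes, Celf5 fell in KO cells by 1.21 (adjusted p = 0.0200) and had a log2 fold change of −0.36 in WT cells (adjusted p = 0.544). Its KO call was lost without KO myoblast replicate 2 (adjusted p = 0.0600), without KO myotube replicate 4 (adjusted p = 0.0593), without both shallow libraries (−0.59, adjusted p = 0.248) and with sample weights (adjusted p = 0.0801). Celf4 fell in KO cells by 1.06 (adjusted p = 0.0112) and was higher in KO than WT myoblasts by 1.18 (adjusted p = 0.00977), while Celf3 had no read and Celf6 at most 2 in any library.

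The genotype comparisons asked which transcripts differ between KO and WT cells at each stage. The KO cells also went through lentiviral transduction and selection, and these steps cannot be told apart from loss of Fam134b here. Celf2 and Rbm24 were lower in KO cells at both stages. Mbnl2 was called lower in KO myotubes, a call lost in many of the alternatives given above. No member was called higher in KO cells at either stage, though Mbnl3 passed as higher in some of the alternatives given above. Of all tested genes, 7.26% were called higher in KO myoblasts and 9.74% in KO myotubes. In myoblasts 2 of 10 members were called, where 15.8% of all genes were, and 5 members had groups without overlap, against 26.8% of all genes. In myotubes 3 were called against 23.4%, and 4 had groups without overlap against 19.4%. The unadjusted p was under 0.05 for 4 members in myoblasts and 5 in myotubes, beside 2946 and 3844 of all 10767 tested genes. The members' median log2 fold change was −0.02 in myoblasts and −0.26 in myotubes, beside −0.01 and −0.07 over all genes. Ptbp1, Celf2, Mbnl2 and Rbm38 overlap exons of genes on the other strand, and since the strand setting of the counting is not given, reads of such partners cannot be told apart.

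**Figure D3:**
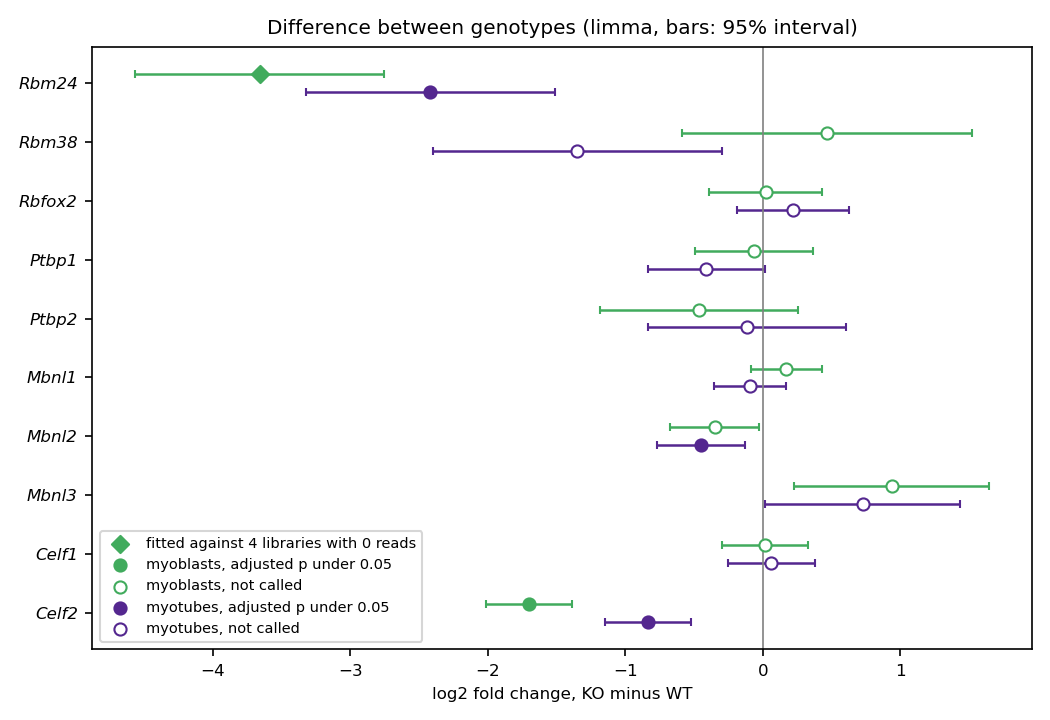
Log2 fold change of each member between genotypes (x axis, KO minus WT, with 95% intervals from limma) in myoblasts (green) and myotubes (purple). Filled points were called at an adjusted p under 0.05, and the diamond marks Rbm24 in myoblasts, fitted against 0 reads in KO myoblasts. Celf2 and Rbm24 lie left of 0 at both stages.

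The level of 1 member relative to another was taken as the difference of their log2 values within each library. Mbnl1 and Celf1 act in opposition on many transcripts, and the other pairs compared here are paralogs. A group is compared with another by a two-sided exact permutation test over 4 against 4 libraries, whose smallest p is 0.0286, adjusted over 20 tests. Celf2 minus Celf1 was 1.08 ± 0.10 in WT myoblasts, 1.36 ± 0.11 in WT myotubes, −0.64 ± 0.22 in KO myoblasts and 0.46 ± 0.12 in KO myotubes (SD, n = 4 each). None of these groups overlapped with the group it was compared with, and all 4 comparisons reached the smallest p (exact permutation, adjusted p = 0.0476). Between genotypes Celf2 alone differed by −1.70 in myoblasts and −0.83 in myotubes, and Celf1 by 0.02 and 0.06. Mbnl1 minus Celf1 was lower in myotubes than myoblasts, with differences of −0.41 in WT and −0.72 in KO cells (exact permutation, adjusted p = 0.0476 each). Ptbp2 minus Ptbp1 shifted toward Ptbp2 by 2.10 in KO cells (exact permutation, adjusted p = 0.0476), and by 1.40 in WT cells without passing the test (adjusted p = 0.122). In WT cells it ranged from −3.54 in myotube replicate 2, within the myoblast range, to −0.62 in replicate 1.

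**Figure D4:**
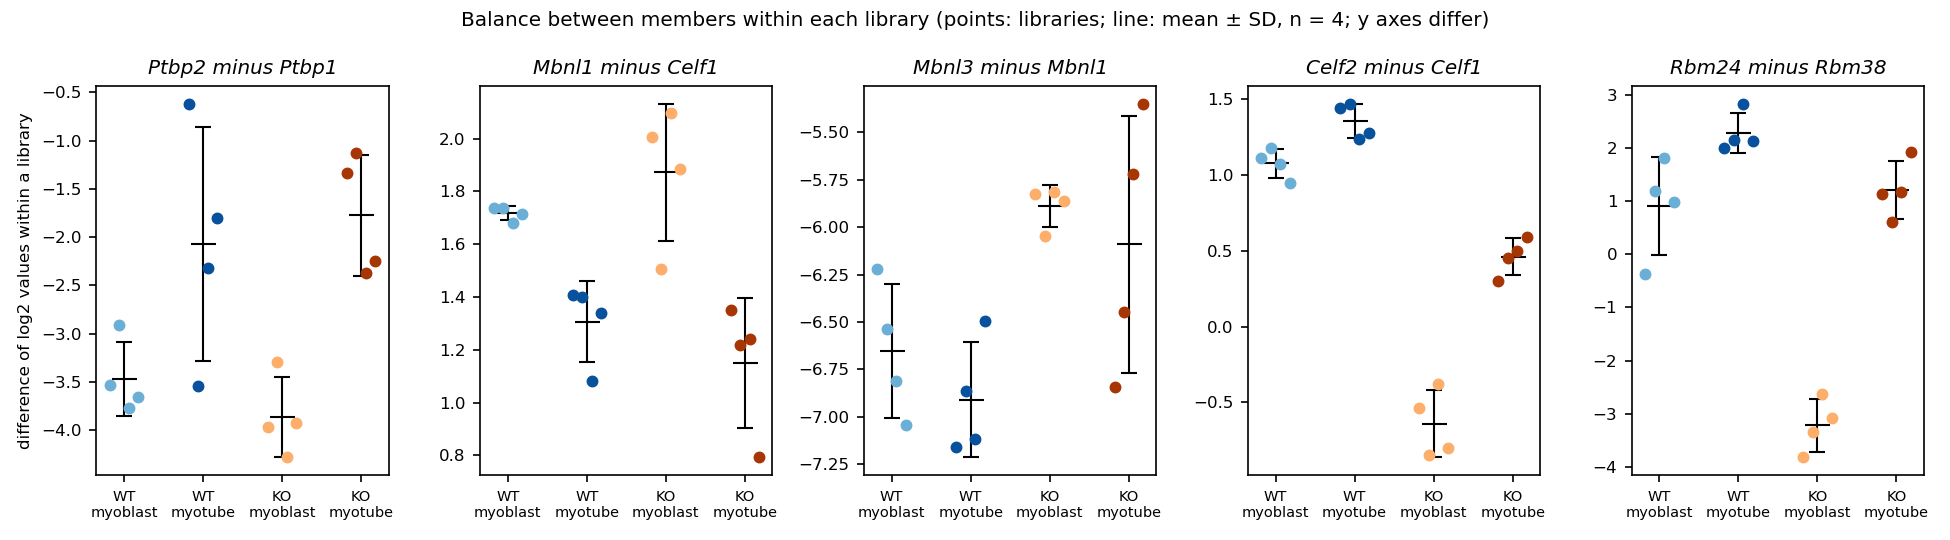
Difference of the log2 values of 2 members within each library (y axis, a separate scale per pair) by group, with the mean ± SD of 4 libraries. Celf2 minus Celf1 separates all 4 groups, and Ptbp2 minus Ptbp1 spreads from −3.54 to −0.62 in WT myotubes.

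Mbnl3 minus Mbnl1 was 0.77 higher in KO than in WT myoblasts (exact permutation, adjusted p = 0.0476) and was not called otherwise. Rbm24 minus Rbm38 was 1.38 higher in WT myotubes than in WT myoblasts and differed by −1.07 between KO and WT myotubes (exact permutation, adjusted p = 0.0476 each). In KO myoblasts it rests on 0 reads of Rbm24. In all, 12 of 20 tests were called, each at the smallest p, and with a pseudocount of 0.5 the adjusted p of all but 1 of them became 0.0519 and none was called.

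Within WT myotubes the members and the stage markers ranked the libraries alike in part. Replicate 2 had the lowest Rbm24, Rbm38 and Ptbp2 and the highest Ptbp1, and also the lowest summed myotube markers (39392 normalized counts) and the highest summed proliferation markers (4537). Replicate 1 had the highest Rbm24, Rbm38, Rbfox2 and Ptbp2 and the lowest Ptbp1, but replicate 3 had the highest summed myotube markers (60127), and the proliferation markers of replicate 1 (3227) were the highest after replicate 2. In KO myotubes replicate 3 had the highest Rbm24, Rbm38 and myotube markers (21751). Replicate 1 came next to it in Rbm24 and Rbm38 while it held the lowest myotube (15699) and the highest proliferation markers (1965). The part of the stage reached by each culture in these values was not tested.

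Members whose called log2 fold change on differentiation reached 1 in either genotype or direction were compared with all other tested genes by the root mean square difference between the 4 group means, each gene centred on its own mean. Among 10754 genes, those nearest to Rbm24 were Ryr1 (0.16), Trim54 (0.21) and Csrp3 (0.21), which encode the calcium release channel of muscle and proteins of the sarcomere and its Z-disc. Shroom3 (0.07) was nearest to Rbm38, Pars2 (0.02) to Ptbp1, Tmbim4 (0.02) to Rbfox2 and Peg10 (0.04) to Mbnl3. The measure rests on 4 group means and describes likeness of pattern only.

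Genes with exons known to be regulated by the members were taken as a list of 25, of which 23 were tested. In WT cells 16 rose and 1 fell on differentiation, with a median log2 fold change of 1.12, and in KO cells 15 rose and 1 fell, with a median of 1.08, beside −0.01 and −0.02 over all tested genes. Of all tested genes 13.8% were called higher and 9.16% lower in WT myotubes, and 17.3% and 16.1% in KO myotubes. Atp2a1, the calcium pump of the sarcoplasmic reticulum, rose in WT cells by 4.91 on the log2 scale (adjusted p = 1.20e-11), and Ryr1 by 3.51 (adjusted p = 2.76e-07). In KO against WT cells 13 were lower and 1 higher in myoblasts, and 11 were lower and 1 higher in myotubes, with medians of −0.60 and −0.66 beside −0.01 and −0.07. Among all genes 8.5% were lower and 7.26% higher in KO myoblasts, and 13.7% and 9.74% in KO myotubes. Tnnt3, the gene of fast troponin T, was lower in KO myotubes with a log2 fold change of −2.07 (adjusted p = 4.45e-05), and Ryr1 had −2.01 (adjusted p = 3.10e-04). Several of these genes are also myotube markers, and their levels do not report on the exons they include.

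The core spliceosome, the machinery that removes introns, was lower in myotubes where it was called. Of 34 core spliceosome genes, 15 fell and 0 rose in WT cells and 12 fell and 0 rose in KO cells, with medians of −0.48 and −0.40 against the −0.01 and −0.02 of all genes. Of all tested genes, 9.16% were called lower and 13.8% higher in WT myotubes, and 16.1% and 17.3% in KO myotubes. Snrpc, a protein of the U1 particle, fell in both, by 0.92 (adjusted p = 0.00210) and by 0.78 (adjusted p = 0.00459). The count in WT cells dropped to 7 without WT myotube replicate 3, to 8 without replicate 1 or 4 and to 9 without WT myoblast replicate 3 or 4. In KO cells it dropped to 7 without KO myoblast replicate 1 or 4 or KO myotube replicate 1. Of the 34 genes, 0 were called between genotypes in myoblasts, beside 15.8% of all tested genes. In KO myotubes 1 was higher and 3 lower (2.94% and 8.82%, beside 9.74% and 13.7% of all tested genes). The proliferation markers fell as well, 7 of 10 in WT and 10 of 10 in KO cells, and their part in this fall was not tested.

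**Figure D5:**
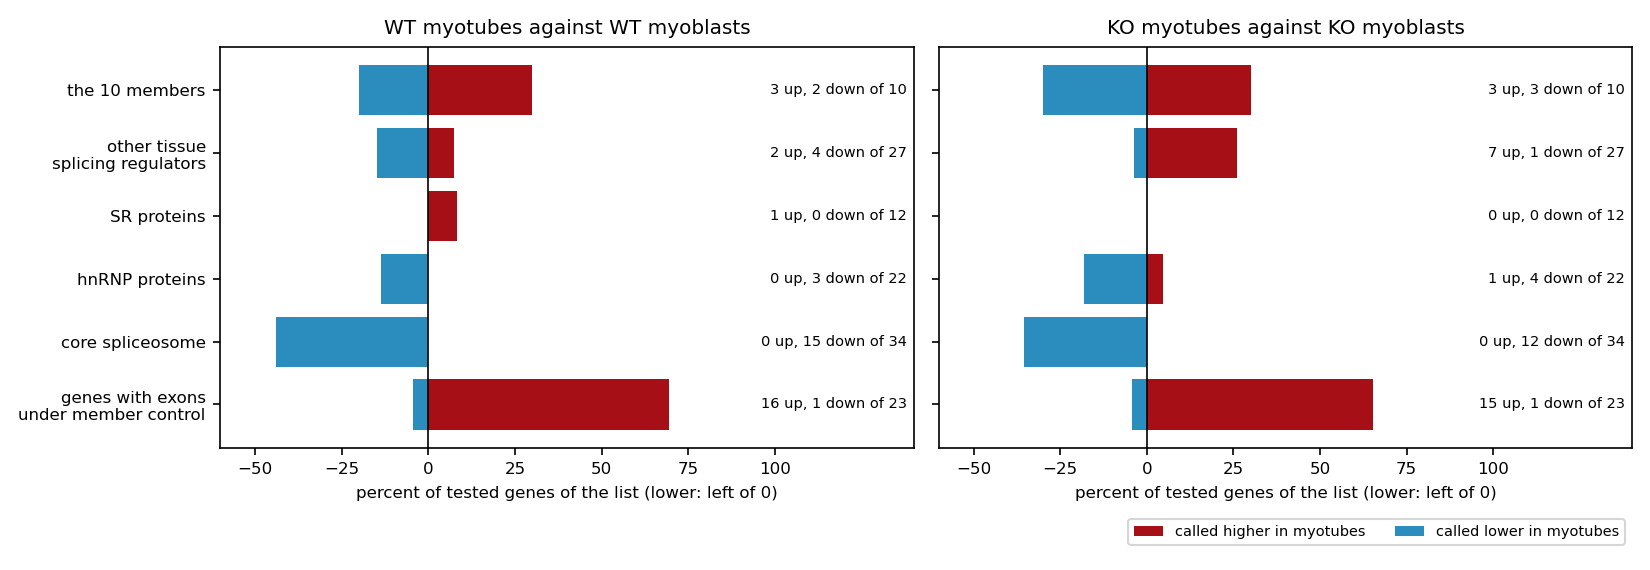
Share of the tested genes of each list (x axis, percent) called higher (red, right of 0) or lower (blue, left of 0) in myotubes than in myoblasts, in WT (left panel) and KO cells (right panel), with the counts printed beside the bars. The core spliceosome bars lie only to the left of 0, and those of the genes with exons under member control mostly to the right.

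SR proteins mostly promote exon inclusion and hnRNP proteins mostly oppose it. Of 12 SR protein genes, Srsf5 was called in WT cells at 0.89 (adjusted p = 0.0329), a call lost without each of the WT myoblast libraries in turn and without WT myotube replicate 1 or 4. None was called in KO cells. There Srsf5 passed in 7 of the alternatives run, among them a fit of the 8 samples compared (0.73, adjusted p = 0.0346). It also passed with sample weights (0.87, adjusted p = 0.00729) and without the shallow KO myotube libraries (1.05, adjusted p = 0.0198). Of all tested genes, 23% were called in WT and 33.4% in KO cells. Of 22 hnRNP genes, 3 fell in WT cells (13.6%, beside 9.16% of all tested genes), and 4 fell and 1 rose in KO cells (18.2% and 4.55%, beside 16.1% and 17.3%). Hnrnpa3 fell in both, by 0.64 (adjusted p = 0.00471 and 0.00265). Among 27 other tissue splicing regulators, 2 rose and 4 fell in WT cells (7.41% and 14.8%, beside 13.8% and 9.16% of all tested genes), and 7 rose and 1 fell in KO cells (25.9% and 3.7%, beside 17.3% and 16.1%). With single libraries left out, the falls in WT cells numbered 1 to 3 for hnRNP genes and 1 to 4 for these regulators. Srpk3, a muscle kinase of SR proteins, rose in WT cells from 3 or 4 reads per library to 40 to 61, and had 0 reads in KO myoblasts and 5 to 18 in KO myotubes. Qk, which promotes muscle exons, rose in WT cells by 0.76 (adjusted p = 0.00158). Lower in KO cells at both stages were Rbpms2, at −1.60 in myoblasts and −1.12 in myotubes (adjusted p = 4.70e-07 and 7.93e-05), and Khdrbs3, at −1.57 and −1.71 (adjusted p = 1.70e-06 and 1.31e-06).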

How the data were processed

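mRNA of 16 C2C12 samples was measured in 4 groups of 4. According to the methods and the submitters' processing notes, the authors trimmed single-end reads with bbduk, removed ribosomal RNA and phiX reads, aligned with STAR 2.6.0a and counted genes with HTSeq on mm10. The tool and factor of the normalization and the strand setting are not given in the sources used here. The deposited values are log2 of the normalized count plus 1. Before the log2 step they are whole multiples of 1 step per library for 100% of values above 0 (tolerance 0.01), which gave the reads behind each value.

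Genes reaching a normalized count of 10 in 4 or more samples were fitted with limma 3.58.1 in R 4.3.3 (lmFit, contrasts.fit, eBayes with a trend) as 4 group means, and calls were made below 0.05 after Benjamini-Hochberg adjustment over 10767 genes. Fold changes are on the log2(count + 1) scale, which understates the change of low genes. Folds against groups with 0 reads use the highest floor of 3 reads as a bound. Within-library differences were tested by exact permutation in SciPy 1.17.1. Gene positions come from GENCODE M21 (GRCm38) and promoter sequences from RefSeq (GRCm38.p6).

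All 10 members are named. From each other list at most the 3 called genes with the largest change per comparison are named, and all genes of the paralogs and of the transcripts bound by Rbm24 or Rbm38 may be. The members and lists were chosen with earlier results of these data known. Alternatives were pseudocounts of 0.5 and 5, no filter, a minimum of 50, total, quantile and median-ratio scaling, sample weights, the replicate number as a block, a threshold of 0.01, a fit of the 8 compared samples alone, each library left out, and, chosen after seeing the data, the shallow KO myotube libraries left out.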

Additional observations from a re-analysis of the deposited data

Results flagged for a closer look

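Within each group of 4 libraries, the gap between the highest or lowest library and its nearest neighbor was divided by the range of the group. Of 39 member and group pairs tested, 4 gaps passed Dixon's critical value, where chance passes about 1 in 20. The lowest WT myotube library in Rbm24 was replicate 2, at 6.10 on the log2 scale. In Ptbp1 the highest KO myotube library was replicate 2, at 8.78, a library of 1790524 reads. Rbfox2 in KO myoblast replicate 2 stood above its group at 9.77, and Mbnl3 in the same library stood below its group at 4.70, from 30 reads. Fits without each of these libraries kept the called changes of Rbm24, Ptbp1 and Rbfox2 on differentiation. The response of Celf2 to differentiation was called different between genotypes, with an interaction of 0.87 (adjusted p = 0.0242 in limma). That call was lost in some fits with a single library left out (adjusted p up to 0.0636). Without the shallow KO myotube libraries it was lost too (0.70, adjusted p = 0.0682).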

How the results depend on the processing

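No called member changed direction under any alternative run. The number of members called in the interaction went from 1 to 0 at an adjusted p under 0.01 and was 0 to 1 with single libraries left out. The called within-library differences went from 12 to 0 with a pseudocount of 0.5, and with 3 against 4 libraries their exact test cannot pass. Values that changed sign were all uncalled. They were Mbnl3 (interaction 0.0853 with quantile scaling), Celf1 (KO against WT −0.0658 in myoblasts and −0.00907 in myotubes with sample weights, −0.0486 in myotubes without the shallow libraries, interaction −0.0125, −0.0312 and −0.0654 with total scaling, quantile scaling and without the shallow libraries), Rbfox2 (KO against WT myoblasts −0.0629 with sample weights) and Rbm24 (interaction −0.50 with a pseudocount of 5). The causes were not tested. With single libraries left out, the log2 values that changed sign ranged as follows. Mbnl2 ran from −0.0198 to 0.0999 on WT and from −0.20 to 0.0131 on KO differentiation, and Rbm38 from −0.00381 to 0.78 on KO differentiation. Between genotypes in myoblasts Celf1 ran from −0.0838 to 0.0867, Ptbp1 from −0.17 to 0.0254 and Rbfox2 from −0.12 to 0.0739. In myotubes Celf1 ran from −0.0340 to 0.14, Ptbp2 from −0.46 to 0.19 and Ptbp2 minus Ptbp1 from −0.19 to 0.78. Mbnl3 minus Mbnl1 ran from −0.45 to 0.0487 on KO differentiation. In the interaction Mbnl3 ran from −0.44 to 0.0274, Celf1 from −0.0508 to 0.15 and Ptbp2 from −0.00086 to 0.65.

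The replicate numbers were not taken to pair libraries, since 10 and not all of 24 same-numbered pairs had a correlation of deviations over 0.1 (mean 0.033, range −0.223 to 0.369), beside 17 of 72 differently numbered pairs (mean −0.0108). A library correlated best with its own number in 16 of 48 cases. With the replicate number as a block the members called were 5 in WT and 6 in KO differentiation, 2 in myoblasts, 4 in myotubes and 1 in the interaction, and Rbm38 passed between genotypes in myotubes (adjusted p = 0.0442). Depth limits the values of Rbm24, Rbm38, Mbnl3, Rbfox1 and Mef2c, with few or 0 reads in at least 1 group.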
